A study of Homo sapiens with 30 samples.

Results

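Messenger RNA levels of 47 genes for translation initiation, elongation and release factors were followed in HEK293 cells that carried engineered tRNAs. The genes were chosen by symbol, a rule with no measured value in it, though earlier results of these data were known. They make up 47 of the 58278 genes counted in every library. HEK293 is an established human embryonic kidney line, labelled wild type. All 30 libraries came from cells transfected with 1 plasmid for an EGFP-mCherry fusion that reports mistranslation, sorted for mCherry 48 h later and extracted for polyA RNA. There were 5 reporters, and each was given alone to 1 group of 3 libraries. A missense correcting tRNA (mc-tRNA), which carries an amino acid that differs from the usual one for its anticodon, was added to the same plasmid in a second group of 3. The pairs were Ser-tRNA_Arg(CCG) with EGFP(R65), Arg-tRNA_Gln(CUG) with EGFP(R96Q), Arg-tRNA_Cys(GCA) with EGFP(R96C), Arg-tRNA_His(GUG) with EGFP(R96H) and Arg-tRNA_Trp(CCA) with EGFP(R96W). They are called here the Ser, Gln, Cys, His and Trp mc-tRNAs. Each comparison asked how an mc-tRNA affected mRNA levels beyond its reporter, whose expression both groups shared. Untransfected cells were not analysed here.

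Translation starts when eIF2, loaded with GTP and the initiator tRNA, joins the small ribosomal subunit as the ternary complex and scans with eIF1, eIF1A, eIF3 and eIF5 from a cap that eIF4E, eIF4G and eIF4A have bound. The exchange factor eIF2B reloads eIF2 with GTP, and phosphorylated eIF2 blocks it, which slows initiation in stressed cells. eEF1A then brings each aminoacyl-tRNA to the ribosome, eEF2 moves the ribosome along, and eRF1 with eRF3 frees the finished chain at a stop codon.

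Library totals were 39017548 to 55446962 counts over genes. A level is given in CPM, counts scaled to a library size of 1000000 after correction by TMM, which assumes that most genes keep their level. Levels are listed in replicate order, and a change is the log2 ratio of 3 libraries with the mc-tRNA to 3 with the reporter alone, with its SE. A gene was called when its adjusted p was under 0.05, and only then are the words rose and fell used (edgeR quasi-likelihood test, Benjamini-Hochberg over 22321 genes tested in 1 fit of all libraries). The labels describe the 3 libraries of a group as independent replicates. The 6 EGFP(R65) libraries held 0 counts of the ERCC spike-in sequences and the 24 EGFP(R96) libraries held 10 to 106. The Ser mc-tRNA and its reporter thus stood apart from the rest, and each change is taken within a reporter. Of the 9 HEK293 markers, all were detected in every library, and their summed level was 744 to 1040.4 CPM. VIM alone was at 426 to 608 CPM, so the sum says little of the other markers.

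Of the 47 genes, 46 were tested. EEF1G, a subunit of the eEF1 exchange complex, was listed at 0 in all 30 libraries, and 99.9% of its exon bases lie also in the annotated read-through gene AP002990.1, which held 1042 counts over all libraries. A level is therefore not known for EEF1G. EIF4A1, the main eIF4A helicase, is also uncertain, because 48.6% of its exon bases are shared with SENP3-EIF4A1 and AC016876.2 and its pseudogene copies held 32.0% as many counts as EIF4A1 itself. EIF3C has the near-identical copy EIF3CL, which held 10.7% as many counts, and EIF3L shares 51.8% of its exon bases with other genes. EEF1A1 has 39 pseudogene copies, but they held 1.5% of its own counts. How reads that match more than 1 gene were counted is not given in the sources used here.

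Per kilobase of annotated exon, EEF1A1 and EEF2 were the most abundant of the members. The median over 30 libraries was 1317 CPM per kb for EEF1A1, which delivers aminoacyl-tRNA, and 1196 CPM per kb for EEF2, which drives translocation. The range of EEF1A1 over libraries was 3997 to 11594 CPM and that of EEF2 was 4033 to 7709 CPM, wider than the gap between their medians. EIF1, a start codon fidelity factor, followed at 235 CPM per kb, EEF1B2 at 232 and EIF3I at 215. The exchange factor subunits were lower, with 22.8 CPM per kb for EIF2B1 and 9.16 for EIF2B4. EIF4E, the cap-binding protein, was at 5.13 CPM per kb. GSPT2, a second gene for the release factor eRF3, was lowest of those detected at 0.199 CPM per kb, against 31.3 for GSPT1. No exon length was taken for EIF2B5 and EIF6, so they are not placed in this order. The length is that of all annotated exons of a gene merged, 14067 bases for EIF4E and 1725 for EIF3I. The order thus depends in part on the annotation.

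Many mRNAs of the translation apparatus begin with a C followed by a run of pyrimidines, the 5′ terminal oligopyrimidine (TOP) motif through which mTOR signalling controls their translation. RefSeq promoter windows (GRCh38.p14), of 250 bases before and 50 from the annotated start, were found for 39 of the 47 members. They were not found for EIF2S2, EIF3A, EIF3E, EIF3G, EIF3H, EIF3L, EIF4EBP1 and EEF1D. A C at the start base followed by at least 4 further pyrimidines was present for 10 members, 25.6% of the 39, against 5.14% of the 27305 genes in the table. The 10 are shown because they hold both elongation factors of highest level and because their changes are set side by side further on. Each line gives 30 bases, from 10 before the start, with the start C and its pyrimidine run in capitals.
EEF1B2 (chr2:206159885-206159914, plus strand): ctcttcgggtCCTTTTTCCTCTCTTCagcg
EIF4A2 (chr3:186783567-186783596, plus strand): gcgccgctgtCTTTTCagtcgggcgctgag
EEF1A1 (chr6:73521013-73521042, minus strand): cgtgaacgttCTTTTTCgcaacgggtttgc
EIF3F (chr11:7987327-7987356, plus strand): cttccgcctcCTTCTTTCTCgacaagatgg
EIF3M (chr11:32583821-32583850, plus strand): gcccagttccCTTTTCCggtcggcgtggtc
EIF4B (chr12:53006446-53006475, plus strand): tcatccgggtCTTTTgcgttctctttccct
EEF2 (chr19:3985444-3985473, minus strand): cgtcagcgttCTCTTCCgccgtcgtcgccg
EIF3K (chr19:38619178-38619207, plus strand): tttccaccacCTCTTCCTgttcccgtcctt
EIF3D (chr22:36529147-36529176, minus strand): cgcatgtttcCTCTTTTCCTggtttctcaa
EIF2S3 (chrX:24054946-24054975, plus strand): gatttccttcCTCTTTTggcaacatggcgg
The longest run, of 16 bases, was that of EEF1B2, and the shortest, of 5, that of EIF4B. The annotated start is a database position, and starts used in these cells were not measured.

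With the Cys mc-tRNA, the largest rises were those of EIF2S2, a subunit of eIF2, EIF5, its GTPase activator, and EIF1B, a paralog of the start codon factor EIF1. They rose by 1.93, 1.93 and 1.89 on the log2 scale, and EIF1, EIF4A2, ETF1 and EIF4H by over 1. Of 46 members, 34 rose, 8 fell and 4 were not called. Over all genes tested, 60.7% were called, 30.2% higher and 30.5% lower, and the median change was -0.04 against 0.41 for the members. The 42 called members had groups that did not overlap, which held for 93.4% of all called genes (56.7% of all genes were called with groups apart). RNA per cell and the share of cells that responded cannot be told apart in bulk libraries. The 10 most counted genes took 10.1% to 10.4% of the counts in these 3 libraries and 5.86% to 6.67% in the EGFP(R96C) libraries, and with scaling by library totals alone the median change of all genes was -0.59. On that scaling 12 members were called higher and 24 lower, so 33.3% of the called members were higher against 81.0% with TMM (all genes, 20.2% against 49.8%). The members' median stood 0.45 above that of all genes on either scaling. A change of scaling shifts all genes nearly alike, so this gap could not have moved and is no check of the result. The 12 that rose on both scalings were EIF1, EIF1B, EIF2S1, EIF2S2, EIF5, EIF3A, EIF3E, EIF3H, EIF4A2, EIF4H, EIF5B and ETF1, and all 8 that fell did so on both. Another 5 stayed above 0 without a call, and 17 were below 0 with library totals, 12 of them called lower. The 4 members not called by TMM, EIF1AX, EIF4G2, EIF6 and GSPT2, were called lower by library totals. The TMM change is given below and the value with library totals follows it where the sign differs. Markers of other cell types moved with these groups: the summed level of 4 stromal markers was 50.6 to 50.9 CPM with the Cys mc-tRNA and 17.5 to 19.3 without, nearly all of it COL1A1, and that of 3 blood markers was 2.29 to 2.31 against 0.827 to 1.48 CPM, nearly all of it CD14. HEK293 markers moved as well, in both directions. With the Cys mc-tRNA the group means of KRT8 and KRT18 were 41.7 and 107 CPM, against 14.9 and 39.7 CPM without. That of NEFL was 36.3 against 65.1 CPM, and VIM was at 504 against 500 CPM. The keratinocyte markers KRT5 and KRT14, and DCN, PTPRC and CD3E, were at or near 0 in every library. The part of the marker changes in the results was not tested.

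**Figure D1:**
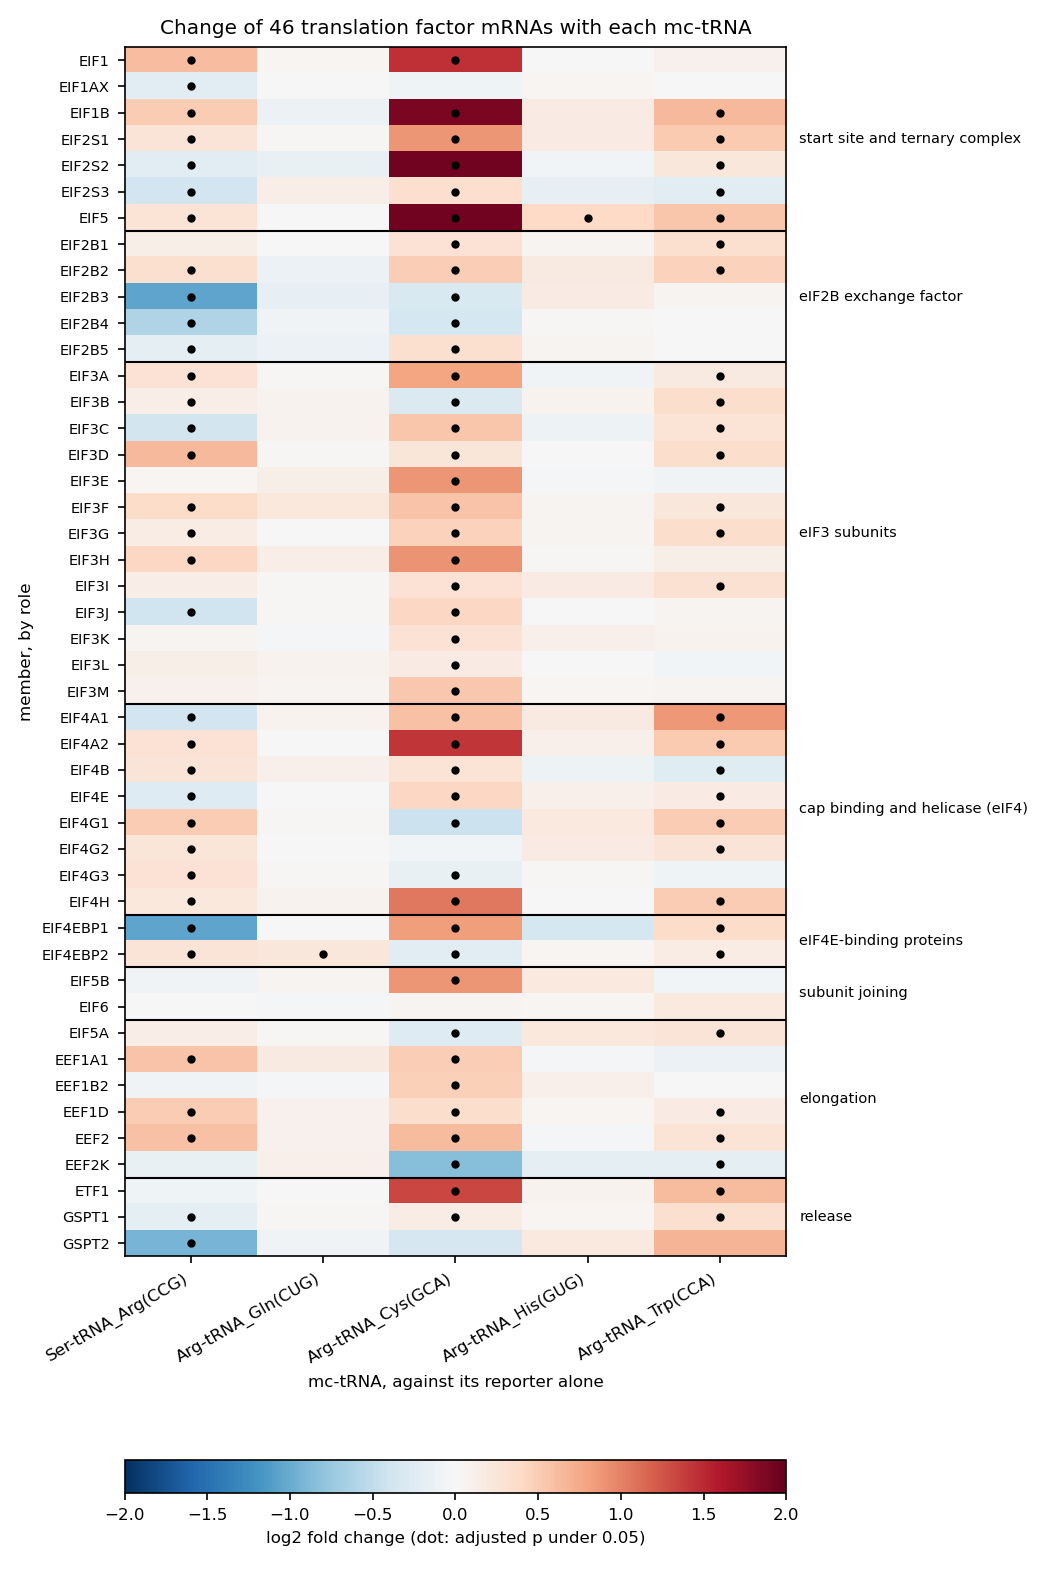
Log2 fold change of the 46 tested members (rows, by role) with each mc-tRNA against its reporter alone (columns), 3 libraries against 3, TMM scaling; black dots mark adjusted p under 0.05. The Cys column holds the 3 largest rises, EIF2S2, EIF5 and EIF1B, the Ser column holds the largest falls, and the Gln and His columns hold 1 call each.

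**Figure D2:**
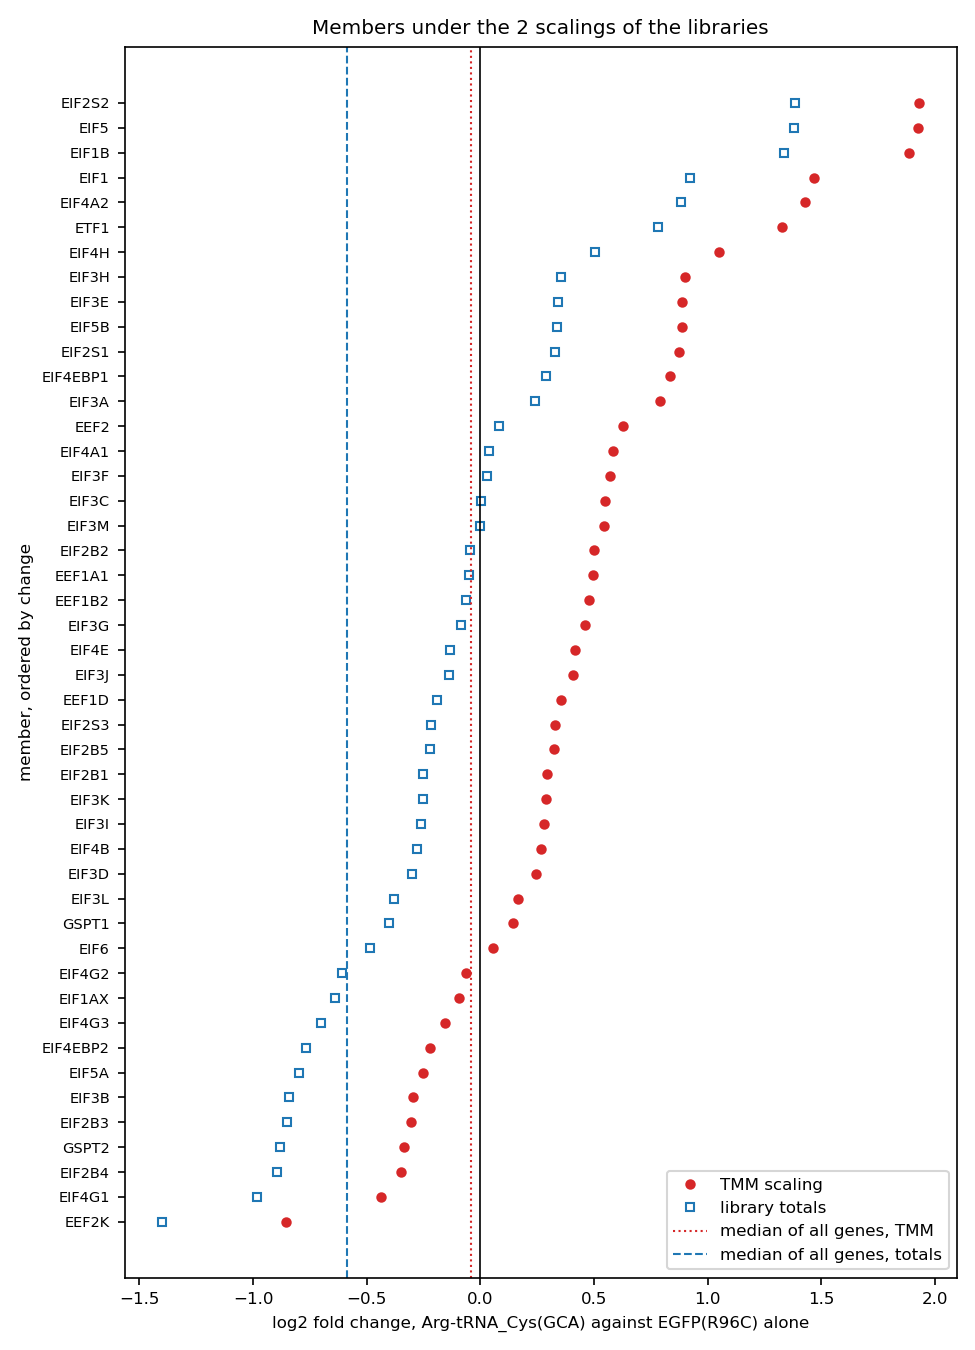
Log2 fold change of the 46 members with the Cys mc-tRNA (x axis), with TMM scaling (filled circles) and with library totals (open squares), ordered by the TMM value; vertical lines show the median of all genes on each scaling. The squares lie to the left of the circles by about the distance between the 2 medians, and 12 members were called higher on both scalings.

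The Ser mc-tRNA changed members in both directions. EIF3D, EIF1, EEF2 and EEF1A1 rose by 0.64, 0.61, 0.59 and 0.58 on the log2 scale, while EIF4EBP1 changed by -1.06, EIF2B3 by -1.05, GSPT2 by -0.94 and EIF2B4 by -0.61. Of 46 members, 21 rose, 13 fell and 12 were not called. Over all genes, 57.3% were called, 26.6% higher and 30.7% lower, with a median change of -0.02 against 0.12 for the members. Groups were apart for 32 of the 34, and overlapped for EIF4A1 and EIF1AX. Of all called genes 97.1% had groups apart (55.6% of all genes were called with groups apart). With library totals 19 rose and 14 fell, and no called member changed sign. The summed blood markers were 9.92 to 12.8 CPM with the Ser mc-tRNA and 2.23 to 2.98 without, again nearly all CD14. HEK293 markers moved both ways here too. With the Ser mc-tRNA the group means of NEFM and NEFL were 19.3 and 15.7 CPM, against 51.8 and 22.5 CPM without. Those of LIN28B and KRT18 were 142.7 and 78.04 CPM, against 77.02 and 54.8 CPM. The part of these marker changes was not tested.

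With the Trp mc-tRNA 26 of the 29 called members rose. EIF4A1, EIF1B, ETF1 and EIF5 rose by 0.87, 0.64, 0.63 and 0.56, and the 3 members that fell were EIF4B, EIF2S3 and EEF2K. Another 17 of the 46 were not called. Over all genes, 42.5% were called, 20.7% higher and 21.7% lower, and the median change was -0.03 against 0.21 for the members. The groups of 24 of the 29 called members did not overlap, against 90.9% of all called genes (38.6% of all genes were called with groups apart). With library totals 16 rose and 8 fell (66.7% of called members higher against 89.7%; all genes 31.4% against 48.8%), the median of all genes lay 0.13 lower, and no called member changed sign. Blood markers summed to 1.55 to 2.39 CPM with the Trp mc-tRNA and 0.846 to 1.01 without. HEK293 markers moved both ways, KRT8 with a mean of 26.3 against 16.7 CPM and NEFL with 34.6 against 44.8 CPM. The part of these marker changes was not tested.

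With the Gln mc-tRNA 1 of 46 members rose, EIF4EBP2, and with the His mc-tRNA 1 rose, EIF5. Of all genes, 0.551% were called with the Gln mc-tRNA, 0.273% higher and 0.278% lower. With the His mc-tRNA 2.51% were called, 1.56% higher and 0.95% lower. The members' medians were 0.02 and 0.05, and at an unadjusted p under 0.05 there were 7 members (15.2%, against 10.2% of all genes) and 11 (23.9%, against 16.3%). The Gln count was 0 with no filter on low counts and 0 in a fit of its 6 libraries. With DESeq2 2 members rose with the His mc-tRNA. In a fit of its 6 libraries 7 rose and 1 fell, and 1911 genes were called in place of 560. With a replicate block in the fit of all libraries, 5 further members were called with the His mc-tRNA, in both directions. A member short of a call is not shown to be at the same level.

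**Figure D3:**
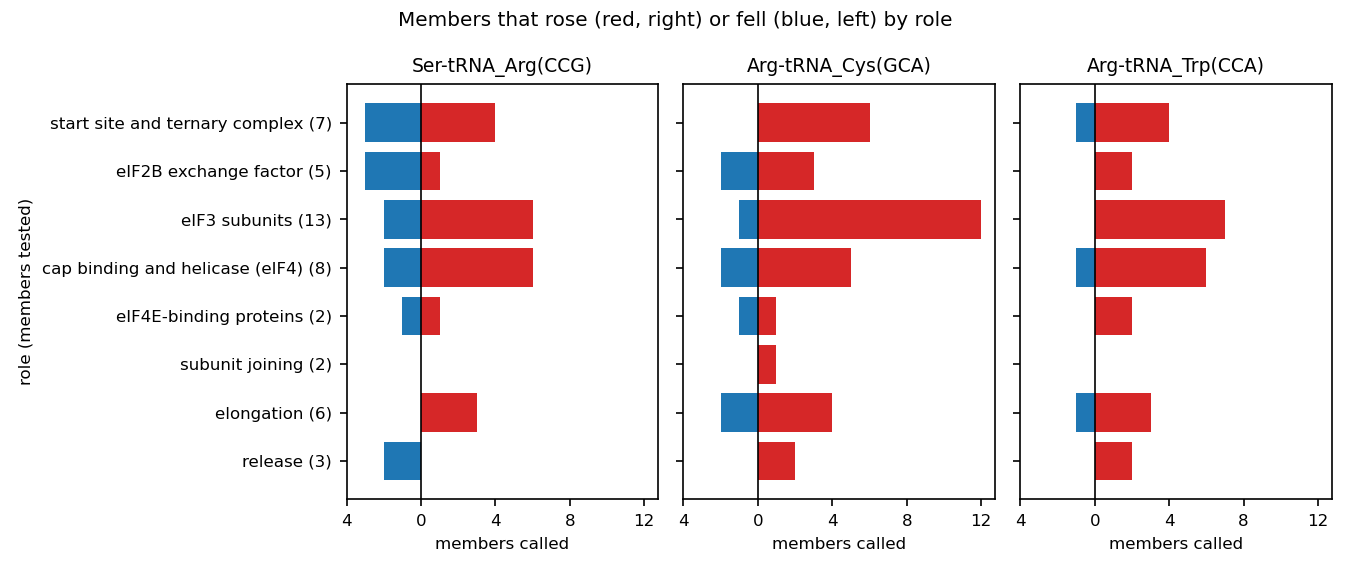
Number of members that rose (red, to the right of 0) or fell (blue, to the left) with the Ser, Cys and Trp mc-tRNAs, by role; the number tested is in parentheses and calls are at adjusted p under 0.05 with TMM scaling. With the Cys mc-tRNA 12 of 13 eIF3 subunits rose (30.2% of all genes rose). Of these, only EIF3H, EIF3E and EIF3A were also called higher by library totals. With the Ser mc-tRNA 3 of 5 eIF2B subunits fell (30.7% of all genes fell).

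The factors for start site choice and the ternary complex held the 4 largest rises with the Cys mc-tRNA. Of 7, 6 rose and 0 fell with the Cys mc-tRNA, 4 rose and 3 fell with the Ser mc-tRNA, and 4 rose and 1 fell with the Trp mc-tRNA. EIF2S2, the beta subunit of eIF2 (chr20:34088298-34112332, minus strand, GRCh38), was at 243, 241 and 257 CPM with EGFP(R96C) alone and at 927, 954 and 948 CPM with the Cys mc-tRNA. The treated libraries were all above any other library of the series, and the change was 1.93 ± 0.06 (adjusted p = 2.39e-25). With the Ser mc-tRNA it went from 281, 296 and 308 CPM to 254, 258 and 257 CPM, a fall of small size with groups apart, -0.20 ± 0.06 (adjusted p = 0.00266). With the Trp mc-tRNA it went from 295, 321 and 326 CPM to 355, 389.8 and 358 CPM, 0.23 ± 0.06 (adjusted p = 0.00155). EIF2S1, the alpha subunit that stress kinases phosphorylate, rose with all 3, from 114, 116 and 109.6 CPM to 201, 217 and 205 CPM with the Cys mc-tRNA, 0.88 ± 0.06 (adjusted p = 1.53e-15). It went from 201, 202 and 196 CPM to 240.4, 244 and 231 CPM with the Ser mc-tRNA, 0.25 ± 0.06 (adjusted p = 2.65e-04), and from 119.9 ± 5.79 to 172 ± 15.97 CPM (mean ± SD, n = 3) with the Trp mc-tRNA, 0.52 ± 0.06 (adjusted p = 3.41e-09) by edgeR. In each of these the groups were apart. The EGFP(R65) libraries started at about the level the Cys mc-tRNA libraries reached. EIF2S3, the gamma subunit that binds GTP and the initiator tRNA, moved otherwise: 539, 547 and 591 CPM against 424, 434 and 427 CPM with the Ser mc-tRNA, -0.38 ± 0.06 (adjusted p = 8.22e-07), and 620.1, 673 and 692 CPM against 560.2, 584 and 578 CPM with the Trp mc-tRNA, -0.20 ± 0.06 (adjusted p = 0.0047). Both were falls with groups apart. It was higher by TMM with the Cys mc-tRNA at 0.33 and lower by library totals at -0.22, so the 3 subunits of eIF2 did not change in step.

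EIF5, which makes eIF2 hydrolyse its GTP at the start codon (chr14:103333544-103345025, plus strand), stood at 389, 382 and 377 CPM with EGFP(R96C) and at 1456, 1561 and 1344 CPM with the Cys mc-tRNA. The treated values were highest of the series and the change was 1.93 ± 0.10 (adjusted p = 5.48e-17). In the Trp pair it stood at 429, 385 and 318 CPM and 588, 591 and 490.0 CPM, groups apart, 0.56 ± 0.09 (adjusted p = 1.53e-05). In the His pair it stood at 311, 298 and 279 CPM and 418, 403 and 345 CPM, also apart, 0.39 ± 0.09 (adjusted p = 0.0199). The His call was lost without EGFP(R96H) replicate 2 or 3 or His mc-tRNA replicate 1 or 2 (adjusted p 0.0744 to 0.195). In the Ser pair it went from 661, 654 and 538 CPM to 779.5, 784 and 680.0 CPM, 0.28 ± 0.09 (adjusted p = 0.0125), and this call was lost without EGFP(R65) replicate 3 or Ser mc-tRNA replicate 1 or 2 (adjusted p 0.0534 to 0.122). EIF1 keeps the scanning ribosome open until a start codon is found. It went from 856, 893 and 751 CPM to 2246, 2274 and 2389 CPM with the Cys mc-tRNA, 1.47 ± 0.07 (adjusted p = 4.36e-19), and from 768, 790.1 and 812 CPM to 1218, 1224 and 1184 CPM with the Ser mc-tRNA, 0.61 ± 0.07 (adjusted p = 4.29e-09). Both rises had groups apart, while the Trp pair overlapped, 834, 919 and 1034 CPM against 966, 1088 and 897 CPM, 0.08 ± 0.07 (adjusted p = 0.368). EIF1B, its close paralog, rose in all 3: from 108, 109 and 124 CPM to 402, 429 and 426 CPM, from 102, 98.8 and 96.003 CPM to 155.1, 168 and 140.9 CPM, and from 95.98, 98.7 and 102 CPM to 134.3, 146.7 and 140.2 CPM. None of these groups overlapped, and the changes were 1.89 ± 0.07 (adjusted p = 9.58e-24) for Cys, 0.64 ± 0.06 (adjusted p = 3.20e-10) for Trp and 0.51 ± 0.06 (adjusted p = 2.03e-08) for Ser. EIF1AX, another scanning factor, was called lower with the Ser mc-tRNA, -0.23 ± 0.07 (adjusted p = 0.00747), with overlapping groups, and lost the call without EGFP(R65) replicate 1 or Ser mc-tRNA replicate 3 (adjusted p 0.0577 to 0.0613). Its changes with the other mc-tRNAs were -0.09 to 0.04.

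**Figure D4:**
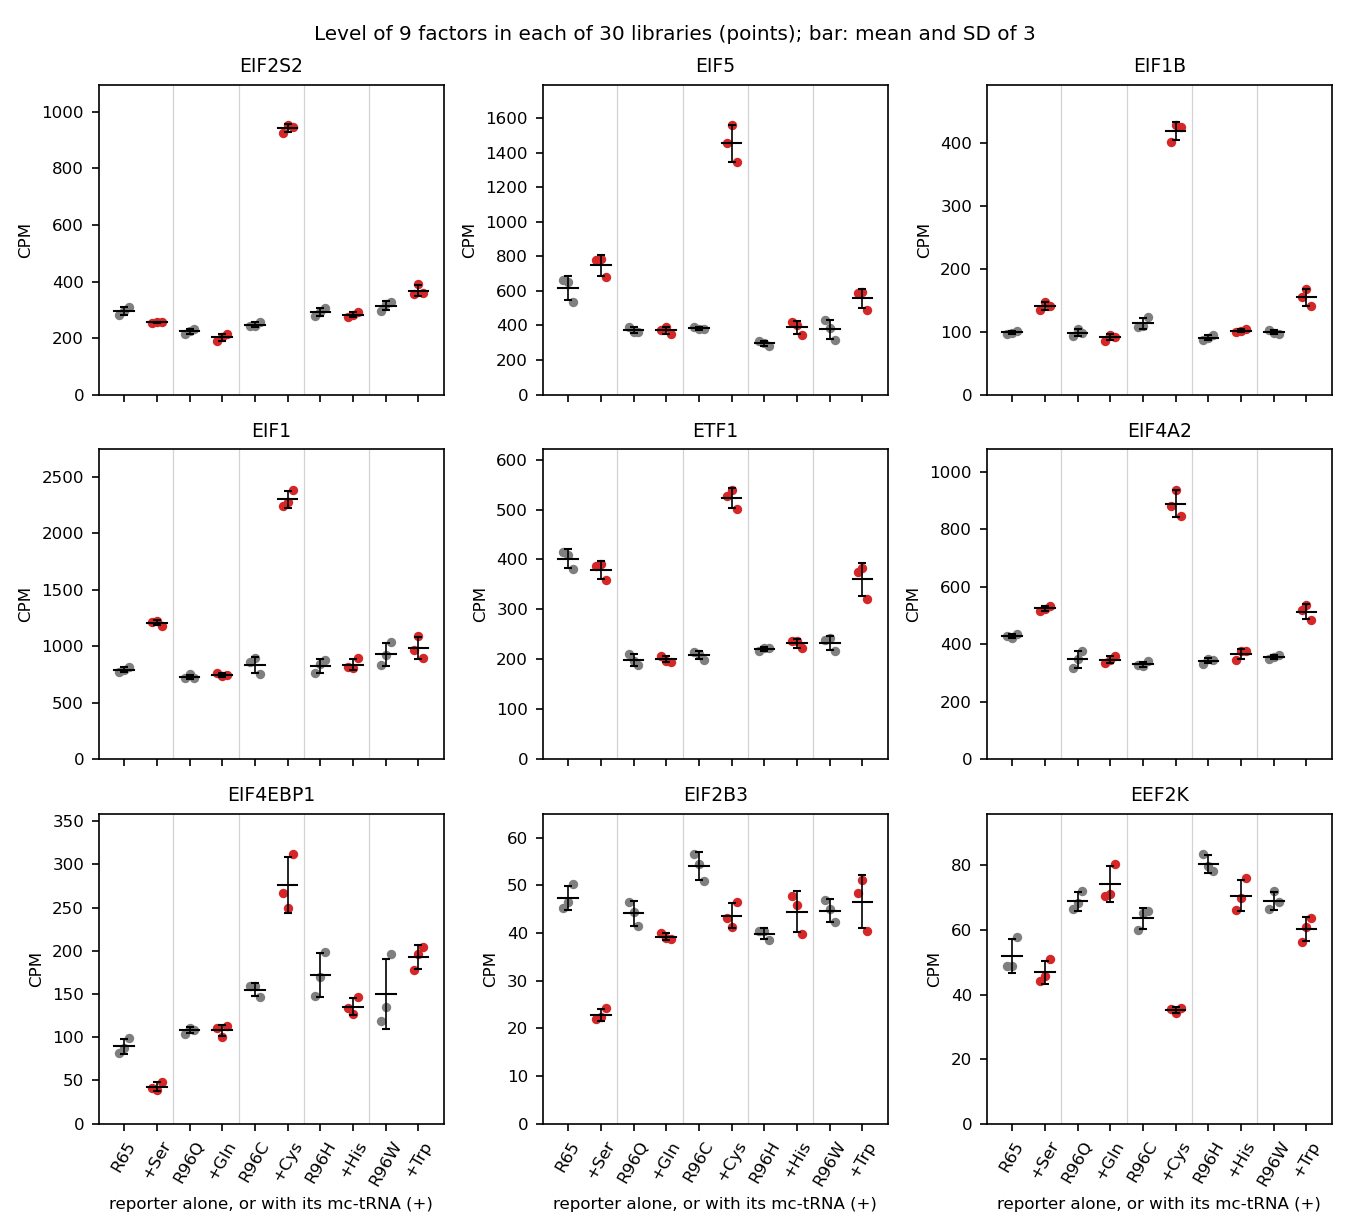
Level in CPM (y axes, each from 0) of 9 members in each of the 30 libraries, grouped on the x axis as reporter alone (gray) or with its mc-tRNA (red); bars give the mean and SD of 3 libraries. EIF2S2, EIF5, EIF1B, EIF1, ETF1 and EIF4A2 are highest in the 3 Cys mc-tRNA libraries, EIF4EBP1 and EIF2B3 are lowest with the Ser mc-tRNA, and EEF2K is lowest with the Cys mc-tRNA.

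The exchange factor eIF2B split by subunit. With the Ser mc-tRNA 1 of its 5 subunits rose and 3 fell, with the Cys mc-tRNA 3 rose and 2 fell, and with the Trp mc-tRNA 2 rose and 0 fell. EIF2B3, the gamma subunit, stood at 45.3, 46.5 and 50.3 CPM with EGFP(R65) and at 21.9, 22.3 and 24.3 CPM with the Ser mc-tRNA, the lowest levels of the series, a change of -1.05 ± 0.08 (adjusted p = 9.10e-14). It also fell with the Cys mc-tRNA, from 56.6, 54.6 and 50.9 CPM to 43.2, 41.3 and 46.4 CPM, -0.31 ± 0.08 (adjusted p = 7.08e-04), with groups apart. EIF2B4, the delta subunit, went from 71.1, 71.4 and 72.1 CPM to 46.4, 44.7 and 49.7 CPM with the Ser mc-tRNA, -0.61 ± 0.07 (adjusted p = 9.45e-09), and from 63.6, 54.1 and 49.8 CPM to 41.3, 41.5 and 48.6 CPM with the Cys mc-tRNA, -0.35 ± 0.07 (adjusted p = 1.21e-04). Both falls had groups apart, and neither gamma nor delta was called with the Trp mc-tRNA (0.06 ± 0.08 and 0.01 ± 0.07). EIF2B5, the catalytic epsilon subunit, was at 65.9, 69.5 and 65.2 CPM and 56.7, 61.04 and 58.9 CPM in the Ser pair, a small fall of -0.18 ± 0.06 (adjusted p = 0.0144) that was lost without EGFP(R65) replicate 2 or Ser mc-tRNA replicate 1 (adjusted p 0.0595 to 0.071). In the Cys pair it was at 69.5, 69.5 and 69.4 CPM and 82.5, 91.9 and 86.6 CPM, 0.32 ± 0.06 (adjusted p = 3.88e-05) by TMM and -0.22 by library totals. The alpha subunit EIF2B1 changed by 0.33 with the Trp mc-tRNA, a rise, and by 0.29 with the Cys mc-tRNA (-0.25 by library totals). EIF2B2, the beta subunit, rose by 0.32 with Ser and 0.46 with Trp, and changed by 0.50 with Cys (-0.05 by library totals).

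Among the 13 subunits of eIF3, the scaffold between the mRNA and the small subunit, 12 rose and 1 fell with the Cys mc-tRNA, 6 rose and 2 fell with the Ser mc-tRNA, and 7 rose and 0 fell with the Trp mc-tRNA. The rises of EIF3H, EIF3E and EIF3A with the Cys mc-tRNA, by 0.90, 0.89 and 0.79, held on both scalings. EIF3F and EIF3C, at 0.57 and 0.55, stayed above 0 without a call by library totals. The other 7 that rose by TMM were below 0 by library totals: EIF3M (0.54 against -0.0017), EIF3G (0.46 against -0.08), EIF3J (0.41 against -0.14), EIF3K (0.29 against -0.25), EIF3I (0.28 against -0.26), EIF3D (0.25 against -0.30) and EIF3L (0.17 against -0.38). EIF3B, which with EIF3A forms the core, was the subunit that fell with the Cys mc-tRNA, -0.30 ± 0.06 (adjusted p = 1.73e-05), and it rose with the Trp mc-tRNA, 0.35 ± 0.06 (adjusted p = 2.60e-06). EIF3D, a subunit that can itself bind the cap, was at 539, 544 and 551 CPM with EGFP(R65) and at 855, 867 and 828 CPM with the Ser mc-tRNA. Those groups were apart and the rise, 0.64 ± 0.06 (adjusted p = 6.93e-11), was the largest among the members in that comparison. EIF3D in the Trp pair was at 474, 494 and 524 CPM and 658, 692 and 556 CPM, 0.35 ± 0.06 (adjusted p = 1.78e-05), with groups apart. EIF3J, which is loosely bound, fell with the Ser mc-tRNA by 0.39 on the log2 scale, as did the uncertain EIF3C by 0.37, while EIF3H, EIF3F and EIF3A rose by 0.41, 0.37 and 0.29.

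Several of the smaller eIF3 calls were lost when 1 library was left out. With the Ser mc-tRNA EIF3B (0.13) lost its call without any 1 of the 6 libraries (adjusted p 0.0627 to 0.175), and EIF3G (0.15) without any but EGFP(R65) replicate 3 (0.0623 to 0.165). For the Cys mc-tRNA, EIF3I lost it without replicate 3 of either group (adjusted p 0.0618 to 0.063), EIF3K likewise (0.0656 to 0.0854), and EIF3L without any but EGFP(R96C) replicate 1 (0.0652 to 0.124). With the Trp mc-tRNA EIF3A (0.17) lost it without EGFP(R96W) replicate 3 or Trp mc-tRNA replicate 1 (adjusted p 0.0525 to 0.0543), and EIF3C (0.28) without those or Trp mc-tRNA replicate 2 (0.0707 to 0.13).

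The cap-binding and helicase factors rose in most cases with the Ser and Trp mc-tRNAs, 6 of 8 rising in each, with 2 falling with Ser and 1 with Trp. With the Cys mc-tRNA 5 rose and 2 fell. EIF4A2, the second eIF4A helicase, rose in all 3. It went from 327, 323 and 340.3 CPM to 882, 939 and 846 CPM with the Cys mc-tRNA, the highest levels of the series, 1.43 ± 0.06 (adjusted p = 1.06e-21). It went from 349, 357 and 362 CPM to 519, 536 and 485 CPM with the Trp mc-tRNA, 0.53 ± 0.06 (adjusted p = 2.08e-09), and from 427, 423 and 437 CPM to 517, 523 and 534 CPM with the Ser mc-tRNA, 0.29 ± 0.06 (adjusted p = 4.17e-05). None of these groups overlapped. EIF4H, which stimulates the helicase, moved the same way, by 1.05 ± 0.05 with Cys, 0.50 ± 0.05 with Trp and 0.21 ± 0.05 with Ser. For EIF4A1, whose counts are uncertain, the listed levels in the Trp pair were 14.2, 12.7 and 11.3 CPM and 22.3, 22.5 and 25.1 CPM, a rise with groups apart, 0.87 ± 0.12 (adjusted p = 4.21e-07). In the Cys pair they were 13.7, 13.6 and 14.1 CPM and 18.9, 21.1 and 22.1 CPM, 0.58 ± 0.12 (adjusted p = 8.43e-05), above 0 but not called by library totals. In the Ser pair they were 36.4, 33.7 and 48.6 CPM and 28.1, 27.4 and 35.4 CPM, overlapping, with a call at -0.39 ± 0.11 (adjusted p = 0.00396) that was lost without EGFP(R65) replicate 3 (adjusted p = 0.0908).

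EIF4G1, the scaffold that joins eIF4E, eIF4A and eIF3, changed in opposite directions. It stood at 469, 468 and 497 CPM with EGFP(R96C) and 365, 352 and 344 CPM with the Cys mc-tRNA. This was a fall of -0.44 ± 0.08 by TMM (adjusted p = 1.68e-05), and EIF4G1 was called lower by library totals too. It stood at 506, 494 and 453 CPM and 706, 704 and 647 CPM in the Ser pair, 0.50 ± 0.08 (adjusted p = 2.07e-06), and at 401, 372 and 337 CPM and 561, 552 and 459 CPM in the Trp pair, 0.50 ± 0.08 (adjusted p = 4.62e-06). All 3 pairs were apart. EIF4G3, its paralog, rose by 0.29 with Ser and fell with Cys (-0.16). EIF4G2, which lacks the eIF4E-binding part, rose by 0.25 with Ser and 0.25 with Trp, but these calls were lost without EGFP(R65) replicate 3 (adjusted p = 0.065) and without EGFP(R96W) replicate 3 (adjusted p = 0.0555). EIF4E itself stood at 60.5, 60.4 and 67.2 CPM with EGFP(R65) and 52.02, 50.4 and 54.1 CPM with the Ser mc-tRNA, a fall of -0.27 ± 0.06 (adjusted p = 3.74e-04) with groups apart. In the Cys pair it stood at 69.1, 69.4 and 68.9 CPM and 90.4, 95.5 and 90.5 CPM, 0.41 ± 0.06 (adjusted p = 3.00e-07) by TMM and -0.13 by library totals. In the Trp pair it stood at 74.1, 75.7 and 71.4 CPM and 80.3, 82.5 and 85.01 CPM, 0.16 ± 0.06 (adjusted p = 0.0282), a call lost without EGFP(R96W) replicate 1 or 3 or Trp mc-tRNA replicate 2 or 3 (adjusted p 0.0572 to 0.0997). EIF4B, a cofactor of the helicase, was at 990.5, 1067 and 1113 CPM and 866, 956 and 862 CPM in the Trp pair, the largest fall among the members there, -0.24 ± 0.06 (adjusted p = 0.00142). In the Ser pair it was at 637, 652 and 709.9 CPM and 788, 805 and 806 CPM, a rise of 0.26 ± 0.06 (adjusted p = 3.23e-04). Both had groups apart, and with the Cys mc-tRNA the change was 0.27 by TMM and -0.28 by library totals.

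The eIF4E-binding proteins hold eIF4E away from eIF4G until mTOR phosphorylates them. EIF4EBP1 ran from 38.5 to 312 CPM over libraries, a ratio of 8.10 that was the highest among the members. It went from 82.1, 87.9 and 98.7 CPM to 41.6, 38.5 and 48.6 CPM with the Ser mc-tRNA, -1.06 ± 0.14 (adjusted p = 1.05e-06), and from 158.9, 159.7 and 146.3 CPM to 267, 249.7 and 312 CPM with the Cys mc-tRNA, 0.83 ± 0.14 (adjusted p = 1.53e-05). The first was a fall and the second a rise, both with groups apart, and the rise was 0.29 and not called by library totals. In the Trp pair it stood at 119, 135.6 and 196 CPM and 177, 197 and 205 CPM, overlapping, 0.36 ± 0.14 (adjusted p = 0.0384), a call lost without EGFP(R96W) replicate 1 or 2 or Trp mc-tRNA replicate 2 or 3 (adjusted p 0.0913 to 0.217). EIF4EBP2 moved less and was the member called with the Gln mc-tRNA, from 146.5, 138.1 and 146.5 CPM to 168, 162 and 175 CPM, 0.23 ± 0.05 (adjusted p = 0.0229). Those groups were apart, but the call was lost without any 1 of EGFP(R96Q) replicates 1 to 3 or Gln mc-tRNA replicates 1 and 3 (adjusted p 0.0512 to 0.241). It rose with the Ser mc-tRNA, 0.26 ± 0.05, fell with the Cys mc-tRNA, -0.22 ± 0.05, and changed by 0.14 ± 0.05 with the Trp mc-tRNA, where the call was lost without EGFP(R96W) replicate 1 or 3 or Trp mc-tRNA replicate 1 or 2 (adjusted p 0.0637 to 0.0769). Of the subunit joining factors, EIF5B, the GTPase of that step, rose with the Cys mc-tRNA by 0.89 ± 0.14 by TMM (adjusted p = 4.98e-06). EIF5B was called higher by library totals too. EIF6, which keeps free large subunits from joining, was called in none of the 5 comparisons by TMM. With the Cys mc-tRNA EIF6 changed by 0.06 by TMM and by -0.49 (adjusted p = 8.81e-05), called lower, by library totals.

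Of the 6 elongation factors tested, 3 rose and 0 fell with the Ser mc-tRNA. With the Cys mc-tRNA 4 rose and 2 fell, and with the Trp mc-tRNA 3 rose and 1 fell. EEF2 went from 4660.3, 4968 and 4887 CPM to 7239.5, 7293 and 7332 CPM with the Ser mc-tRNA, 0.59 ± 0.07 (adjusted p = 1.14e-09), and from 4753, 4644 and 5008 CPM to 7709, 7237 and 7336 CPM with the Cys mc-tRNA, 0.63 ± 0.07 (adjusted p = 1.57e-10). Both had groups apart, and by library totals the Cys value was 0.08 and not called. Its levels with the Trp reporter and mc-tRNA, 4335, 4644 and 5210.0 CPM and 5788, 6276 and 5159.8 CPM, overlapped, 0.28 ± 0.06 (adjusted p = 6.40e-04). EEF1A1 went from 3997, 4105 and 4421 CPM to 6169, 6183 and 6322 CPM with the Ser mc-tRNA, 0.58 ± 0.07 (adjusted p = 5.51e-09), and the EGFP(R65) libraries were the lowest of the series. In the Cys pair it stood at 8036, 8196 and 7283 CPM and 10846, 10741 and 11594 CPM, apart, 0.50 ± 0.07 (adjusted p = 7.91e-08) by TMM and -0.05 by library totals. The Trp pair, at 7767, 8089.7 and 8827 CPM and 7573, 8618 and 6646 CPM, overlapped and was not called, -0.11 ± 0.07 (adjusted p = 0.19). Of the exchange subunits, EEF1D rose with Ser by 0.51, and changed by 0.35 with Cys (-0.19 by library totals) and 0.16 with Trp, where the call was lost without EGFP(R96W) replicate 1 or 2 or Trp mc-tRNA replicate 2 (adjusted p 0.156 to 0.263). EEF1B2 changed by 0.48 with Cys (-0.06 by library totals) and was called with no other mc-tRNA.

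EEF2K, the kinase that inactivates eEF2, moved against EEF2 with the Cys mc-tRNA. It stood at 59.9, 65.2 and 65.9 CPM with EGFP(R96C) and at 35.7, 34.2 and 35.9 CPM with the Cys mc-tRNA, the lowest values of the series. The groups were apart and the fall, -0.85 ± 0.07 (adjusted p = 1.19e-12), was the largest among the members in that comparison. In the Trp pair it stood at 66.5, 71.9 and 68.7 CPM and 56.3, 60.8 and 63.7 CPM, -0.20 ± 0.07 (adjusted p = 0.0237), a call lost without EGFP(R96W) replicate 2 or Trp mc-tRNA replicate 1 (adjusted p 0.105 to 0.138). In the Ser pair, 48.98, 48.98 and 57.9 CPM and 44.2, 45.6 and 50.9 CPM overlapped and were not called, -0.15 ± 0.07 (adjusted p = 0.0759). EIF5A, which helps ribosomes through slow peptide bonds, stood at 743, 691 and 662 CPM with EGFP(R96C) and 584, 553 and 625 CPM with the Cys mc-tRNA, a fall of -0.25 ± 0.07 (adjusted p = 0.00136). In the Trp pair it stood at 467, 450.1 and 465 CPM and 546, 572 and 532 CPM, a rise of 0.26 ± 0.07 (adjusted p = 0.00208). Both had groups apart.

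Of the 3 release factor genes, 2 rose with the Cys mc-tRNA and 2 with the Trp mc-tRNA, and 2 fell with the Ser mc-tRNA. ETF1, which encodes eRF1, the reader of stop codons, went from 215, 210.4 and 199 CPM to 527, 540.1 and 501 CPM with the Cys mc-tRNA, 1.33 ± 0.06 (adjusted p = 1.13e-19). It went from 238, 243 and 217 CPM to 376, 383 and 322 CPM with the Trp mc-tRNA, 0.63 ± 0.06 (adjusted p = 2.90e-10). Both rises had groups apart, and in the Ser pair 415, 409 and 380.1 CPM and 388, 391 and 358 CPM overlapped and were not called, -0.08 ± 0.06 (adjusted p = 0.256). GSPT1, the GTPase eRF3a, varied little over libraries, 233 to 317 CPM. It stood at 248, 249 and 233 CPM and 307, 317 and 292 CPM in the Trp pair, a rise of 0.33 ± 0.05 (adjusted p = 1.44e-06), and at 311, 312 and 299 CPM and 275, 275 and 262 CPM in the Ser pair, a fall of -0.18 ± 0.05 (adjusted p = 0.00196). Both were apart. In the Cys pair it stood at 246, 239 and 237 CPM and 256, 274 and 267 CPM, 0.14 ± 0.05 (adjusted p = 0.0122) by TMM and -0.40 by library totals, and lost the call without EGFP(R96C) replicate 2 or Cys mc-tRNA replicate 2 or 3 (adjusted p 0.111 to 0.186). GSPT2, the second eRF3 gene, had the lowest level of the members detected. In the Ser pair it was at 1.19, 1.33 and 0.827 CPM and 0.446, 0.577 and 0.726 CPM, -0.94 ± 0.31 (adjusted p = 0.0104). Its groups were apart and the call was lost without EGFP(R65) replicate 2 or Ser mc-tRNA replicate 1 (adjusted p 0.0519 to 0.0637).

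The changes in the 5 comparisons differed from each other. Each mc-tRNA was given with its own reporter only, and the EGFP(R65) libraries stood apart. Effects of mc-tRNA, reporter and batch therefore cannot be told apart in these differences. An F-test over the 5 effects called 41 of 46 members, against 72.5% of all genes. Between Ser and Cys, 33 members differed, 8 higher and 25 lower for Ser (all genes 56.5%, 25.3% and 31.3%). Between Ser and Trp, 24 differed, 8 higher and 16 lower for Ser (all genes 45.3%, 19.5% and 25.8%). Between Cys and Trp, 32 differed, 23 higher and 9 lower for Cys (all genes 43.7%, 23.7% and 20%). These splits depend on the scaling: by library totals they were 23 higher and 15 lower, 12 and 13, and 11 and 21. The higher share of called members thus went from 24.2% to 60.5%, from 33.3% to 48% and from 71.9% to 34.4%, and that of all genes from 44.7% to 73.9%, from 43.1% to 51.8% and from 54.3% to 21.8%. EIF2S2 differed most between Ser and Cys, by -2.13 ± 0.08, followed by EIF4EBP1 at -1.90 ± 0.20. The share of all genes called in opposite directions was not counted, so the numbers that follow are not read as particular to the members. Called in opposite directions, with a called difference, were 13 members between Ser and Cys, 7 between Ser and Trp and 6 between Cys and Trp. By library totals this held for EIF2S2, EIF4G1, EIF4G3 and EIF4EBP2 between Ser and Cys, for EIF4A1, EIF4B and GSPT1 between Ser and Trp, and for EIF3B and EIF4G1 between Cys and Trp. Over the 3 comparisons 12 members rose in each by TMM and 0 fell in each. The 12 were EIF1B, EIF2S1, EIF5, EIF2B2, EIF3A, EIF3D, EIF3F, EIF3G, EIF4A2, EIF4H, EEF1D and EEF2. The share of all genes that did so was not counted, so the number is not read as particular to the members. By library totals EIF2B2, EIF3D, EIF3G and EEF1D were below 0 with the Cys mc-tRNA.

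The 4 EGFP(R96) reporters also differed among themselves without any mc-tRNA. An F-test over these 4 groups called 38 of 46 members, against 54.7% of all genes. EIF2S3 had the largest statistic (adjusted p = 1.93e-11). Its levels were 454, 454 and 444 CPM with EGFP(R96C), 456, 488 and 494 CPM with EGFP(R96Q), 620.1, 673 and 692 CPM with EGFP(R96W) and 671, 717 and 750.0 CPM with EGFP(R96H). The first 2 of these groups lay below the last 2, and EGFP(R96W) overlapped with EGFP(R96H). The labels give no transfection or sequencing date, so reporter and batch cannot be told apart.

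Of 27 tested partners and regulators of these factors, such as the kinases of eIF4E and poly(A)-binding proteins, 16 rose and 5 fell with the Cys mc-tRNA, 12 and 3 with the Trp mc-tRNA, 10 and 8 with the Ser mc-tRNA, 2 and 0 with the His mc-tRNA and 0 and 0 with the Gln mc-tRNA. By library totals these counts were 7 and 14 with Cys, 5 and 8 with Trp and 10 and 9 with Ser, so the balance turned with the scaling for Cys and Trp. The share of higher calls fell over all genes as well, from 49.8% to 20.2% with Cys and from 48.8% to 31.4% with Trp. For this list and those below, the shares of all genes called higher and lower by TMM were 30.2% and 30.5% with Cys. They were 20.7% and 21.7% with Trp, 26.6% and 30.7% with Ser, and 1.56% and 0.95% with His. With Gln they were 0.273% and 0.278%. MKNK2, a kinase of eIF4E, rose by 1.09 ± 0.07 with Cys, 0.71 ± 0.07 with Trp and 0.58 ± 0.07 with Ser, and EEF1E1, a protein of the synthetase complex, changed by -1.15 ± 0.10 with Ser. The genes raised by the His mc-tRNA were BZW1 and EIF4E2, by 0.28 ± 0.07 and 0.21 ± 0.06, and EIF4E2 was not called by library totals. Of 9 enzymes that make hypusine on eIF5A and diphthamide on eEF2, 0 rose and 6 fell with Ser, 4 rose and 5 fell with Cys, and 4 rose and 3 fell with Trp (by library totals 0 and 7, 1 and 6, and 2 and 5). DPH6, a diphthamide enzyme, changed by -1.14 ± 0.13 with Ser and -0.71 ± 0.11 with Trp, and DPH2 and DPH1 by -1.22 ± 0.11 and -1.19 ± 0.07 with Cys. Of 9 mitochondrial translation factors, 1 rose and 6 fell with Ser, 5 rose and 3 fell with Cys, and 2 rose and 2 fell with Trp (by library totals 1 and 6, 2 and 7, and 2 and 4). GFM2, which recycles mitochondrial ribosomes, rose by 1.66 ± 0.06 with Cys and 0.60 ± 0.06 with Trp, and GFM1, the mitochondrial translocase, changed by -0.62 ± 0.07 with Ser.

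The 10 members with a pyrimidine start shown above are described here without a test. With the Cys mc-tRNA all 10 rose by TMM (median 0.49, range 0.25 to 1.43), but 7 of them were below 0 by library totals, the others being EIF4A2, EEF2 and EIF3F. Of the other 28 tested members with a window, 16 rose and 8 fell (median 0.29). With the Ser mc-tRNA 6 of the 10 rose and 1 fell, EIF2S3 (median 0.28), against 11 and 10 of the 28 (median 0.06). With the Trp mc-tRNA 4 rose and 2 fell, EIF2S3 and EIF4B (median 0.06), against 17 and 1 of the 28 (median 0.27). The order of the medians thus differed between mc-tRNAs. The letters of a heat shock element core, GAANNTTC or TTCNNGAA, lie in the window of 7 members, 17.9% of 39, against 16.2% of all genes, and each form reads the same on both strands. EIF5B, which rose with the Cys mc-tRNA on both scalings, EIF3F, EEF1A1 and EEF1B2, which rose by TMM alone, and EIF4G2, which was not called by TMM, are 5 of them. The letters are shown for EIF4A2 and EIF5, the 2 with the largest rise with that mc-tRNA, in 30 bases with the match in capitals.
EIF4A2 (chr3:186783497-186783526, plus strand): aagcacggcgaGAAAATTCctccgcaagaa
EIF5 (chr14:103334237-103334266, plus strand): agtcagagcgaGAACATTCcagaggtgagt
The match of EIF4A2 begins 69 bases before the annotated start and that of EIF5 at base 12 after it. EIF1, EIF1B and ETF1, which rose as well, hold no match in these windows, and binding was not measured.

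**Figure D5:**
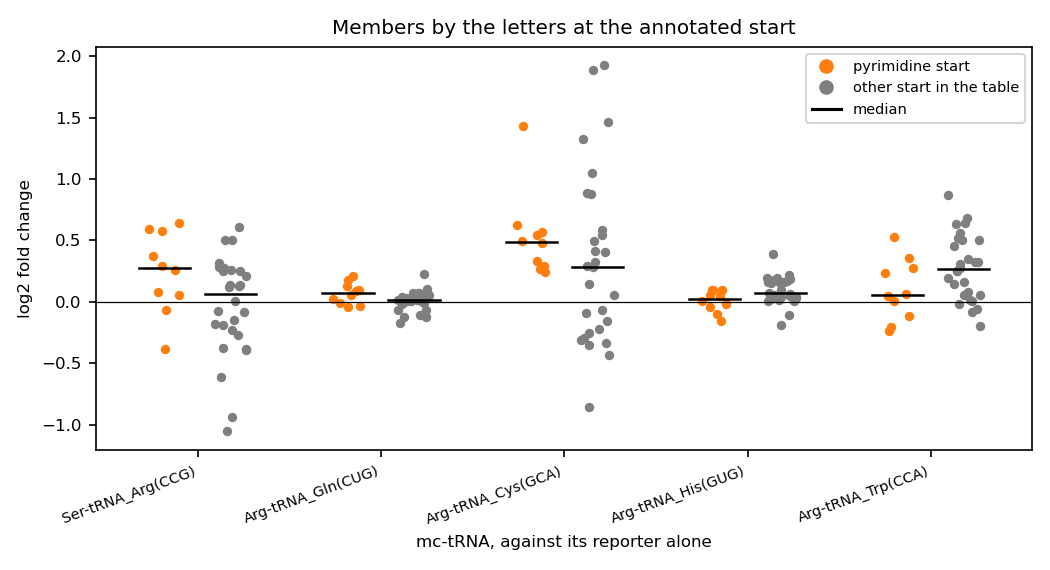
Log2 fold change (y axis, TMM scaling) of members with a pyrimidine start (orange, 10) and other tested members with a RefSeq window (gray, 28). Each mc-tRNA is set against its reporter alone, and black lines are medians. The orange median is 0.49 with the Cys mc-tRNA and 0.06 with the Trp mc-tRNA, where the gray median is 0.29 and 0.27.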

How the data were processed

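The deposited files hold raw counts per gene for each of 30 libraries, with no normalization by the authors. Per the submitters' processing notes, STAR, SAMtools and featureCounts were used with genome build hg38, and per the labels' protocols the libraries were strand-specific. Their versions, the gene annotation and the strand setting are not stated in these sources. Each file listed 58278 genes and 92 ERCC sequences, which entered no test. Positions came from GENCODE release 29, which held 45 of the members with the same version, and promoter sequences from RefSeq. Depth was 39017548 to 55446962 counts, so a count of 0 allows up to 3 counts, or 0.0541 to 0.0769 CPM (counting error only).

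Counts were fitted as 10 group means by the quasi-likelihood method of edgeR 4.0.16 (R 4.3.3; TMM, filterByExpr, robust), with 20 residual degrees of freedom and a biological coefficient of variation of 8.24%. Replicates differed by more than counting error (chi-square per degree of freedom 2.11 to 43.2 over 30 pairs). Adjusted p covers 22321 genes. The fit was tested on simulated data. Alternatives were DESeq2 1.42.0, RLE factors, library totals, no filter, a replicate block, fits of 6 libraries, a fit without EGFP(R65) libraries and leaving out each library. The members and lists were chosen with earlier results of these data known. Levels per library are given for the 4 members with the largest called rise and the 4 with the largest called fall in each comparison and for 13 key factors, and of the other lists the 2 genes with the largest rise and fall may be named. Other members are named by role, with their log2 change.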

Additional observations from a re-analysis of the deposited data

Results flagged for a closer look

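The effects of the mc-tRNAs on the members were flagged because a test of the difference itself called them. Each mc-tRNA had its own reporter, so mc-tRNA, reporter and batch cannot be told apart in these differences. The 5 effects differed for 41 of 46 members, those of Ser and Cys for 33, those of Ser and Trp for 24 and those of Cys and Trp for 32. In the same order, 72.5%, 56.5%, 45.3% and 43.7% of all genes were called. Members called in opposite directions are given as the log2 difference of effects, by TMM.

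Ser minus Cys was -2.13 for EIF2S2, -0.71 for EIF2S3, -0.51 for EIF2B5, -0.92 for EIF3C, -0.80 for EIF3J, -0.97 for EIF4A1, -0.68 for EIF4E, -1.90 for EIF4EBP1 and -0.33 for GSPT1, lower for Ser. It was 0.42 for EIF3B, 0.94 for EIF4G1, 0.44 for EIF4G3 and 0.48 for EIF4EBP2, higher for Ser. Ser minus Trp was -0.43 for EIF2S2, -0.65 for EIF3C, -1.26 for EIF4A1, 0.50 for EIF4B, -0.43 for EIF4E, -1.42 for EIF4EBP1 and -0.51 for GSPT1. Cys minus Trp was 0.53 for EIF2S3, -0.65 for EIF3B, 0.51 for EIF4B, -0.94 for EIF4G1, -0.36 for EIF4EBP2 and -0.51 for EIF5A. With library totals 4 of the 13, 3 of the 7 and 2 of the 6 were still called in opposite directions. The share of all genes called in opposite directions was not counted.

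ERCC sequences, which no comparison used, had up to 106 counts in the EGFP(R96) libraries and 0 in the EGFP(R65) libraries. Use of a spike-in is not mentioned in the labels.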

How the results depend on the processing

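Scaling was the choice that changed most. With library totals the members' median change was -0.136 for Cys (0.41 by TMM), 0.087 for Ser, -0.002 for Gln (0.020 by TMM), 0.024 for His and 0.079 for Trp, and 18 members called on at least 1 of the scalings changed sign, all with the Cys mc-tRNA: EIF3I -0.261, EEF1B2 -0.065, EIF2B5 -0.222, EIF4E -0.132, EEF1A1 -0.048, EEF1D -0.192, EIF3M -0.002, EIF4B -0.277, EIF2B1 -0.253, EIF2B2 -0.046, EIF3J -0.139, GSPT1 -0.402, EIF3G -0.084, EIF3K -0.253, EIF6 -0.485, EIF3D -0.300, EIF3L -0.378 and EIF2S3 -0.217. Of values called on neither scaling, 24 changed sign (10 for Gln, 9 for Trp, 4 for His and 1 for Ser). The median for Ser was 0.154 with RLE factors and 0.147 in a fit of its 6 libraries, and that for Cys was 0.324 with no filter on low counts. The count for Gln was 0 with no filter and 0 in a fit of its 6 libraries, and that for His was 2 with DESeq2, 6 with the replicate block and 8 in a fit of its 6 libraries. Of all values for single members under an alternative, 2657 kept direction and call, 102 lost the call, 49 gained one, 18 with a call changed sign and 118 without a call changed sign.

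Leaving out 1 library, the count of called members was 29 to 32 for Ser, 0 to 1 for Gln, 38 to 42 for Cys, 0 to 2 for His and 25 to 28 for Trp. For differences it was 31 to 37 between Ser and Cys, 23 to 29 between Ser and Trp and 30 to 34 between Cys and Trp, 40 to 42 for the 5 effects and 33 to 39 among the EGFP(R96) reporters. The medians were 0.106 to 0.141, 0.018 to 0.040, 0.347 to 0.414, 0.032 to 0.065 and 0.173 to 0.244 in the order Ser, Gln, Cys, His and Trp.

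Libraries share replicate numbers across groups. Of 15 same-numbered pairs, 4 had a correlation of deviations over 0.1 (range -0.0772 to 0.140) and 9 correlated best with their own number. These values do not settle whether the numbers pair the libraries, and the main fit took no pairing. With the replicate block the counts were 36 for Ser, 1 for Gln, 42 for Cys, 6 for His (4 higher, 2 lower) and 30 for Trp, 34, 27 and 33 for the 3 differences, 41 for the 5 effects and 39 for the reporters. Depth limits GSPT2 most, shared exons limit EEF1G, EIF4A1 and EIF3L most, and the near-identical copy EIF3CL limits EIF3C.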
